A study of Bos taurus with 8 samples.

Results

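The genes described here encode 9 enzymes and enzyme subunits that carry carbon through the mitochondrion of the fetal bovine liver. CS, IDH3A, IDH3B, OGDH, SUCLG1, FH and MDH2 belong to the citrate cycle, and PDHA1 and DLAT belong to the pyruvate dehydrogenase complex that feeds it. A probe was counted for a gene when the RefSeq accession given for that probe on the array belonged to that gene, and no measured value entered this choice. The 9 genes had 25 probes among the 43637 probes analysed, and they are 9 of the 10860 genes with a detected probe, where detection required a signal well above background on 4 or more of the 8 arrays. All 25 probes were well above background on all 8 arrays.

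Japanese Black cows were fed 60% of their nutritional requirement in the low-nutrition (LN) group and 120% in the high-nutrition (HN) group while pregnant, and the livers of their fetuses were taken at 8.5 months in utero. RNA was hybridised in 1 colour to Agilent bovine arrays, with 4 LN fetuses (L5, L6, L8 and L9) and 4 HN fetuses (L1, L2, L3 and L10), 1 array each by the sample labels. According to the methods the dams were inseminated with male-sorted semen of a single sire, and the arrays were given to the fetuses of lowest weight in LN and of highest weight in HN, so the groups are the ends of the weight range and not random members of it. The series' own description speaks of RNA pooled within a group; the 8 arrays are treated here as 8 fetuses. No group fed exactly to requirement was analysed.

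Pyruvate dehydrogenase converts pyruvate to acetyl-CoA inside the mitochondrion, and its activity is lowered by kinases that phosphorylate the E1 alpha subunit and restored by phosphatases. Citrate synthase joins acetyl-CoA to oxaloacetate, and the cycle then oxidises the product step by step, delivering NADH and other reduced carriers to the respiratory chain and returning oxaloacetate. In liver the same intermediates also leave the cycle for glucose, amino acid and lipid synthesis, and the comparison asks whether the RNA of these enzymes differed between fetuses of underfed and well-fed dams.

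Values are log2 signals after quantile normalization over the arrays, and each gene is represented by its probe with the highest mean signal, called probe 1. The group means were compared by a 2-sided limma test, and p was adjusted by Benjamini-Hochberg over 33439 detected probes. With 4 fetuses against 4, the exact permutation test over 35 divisions of the fetuses cannot give a p below 0.0286, and precision is limited throughout by the small number of arrays. The 4 LN arrays lay on 1 slide read in 1 scan and the 4 HN arrays on another, so diet group, slide and scan cannot be told apart. Before normalization the median log2 signal of an array, called its brightness here, lay between 5.97 (L6) and 6.65 (L5) in LN and between 6.30 (L10) and 6.71 (L2) in HN. Hepatocyte markers were present in every liver, with 7 of 8 markers measured and a summed level of 20.68 to 20.77 in LN and 20.61 to 20.74 in HN. Fetus L5 stood apart in erythroid markers, of which 6 of 7 were detected: their summed level was 17.09 in L5, 13.83 to 14.58 in the other LN fetuses and 12.94 to 14.98 in HN. Fetus L2 was the highest in stellate markers (5 of 5 detected), with a summed level of 17.22 against 16.09 to 16.53 in the other fetuses. In RNA from whole liver, fewer cells of a type and less RNA per cell cannot be told apart.

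None of the 9 genes passed an adjusted p of 0.05 (lowest 0.765), and of the 10860 genes 0% did. Citrate synthase, IDH3A and fumarase stood highest in LN relative to HN, by 0.51, 0.50 and 0.53 on the log2 scale, and OGDH stood lowest, by -0.27. The remaining genes, SUCLG1, MDH2, PDHA1, DLAT and IDH3B, differed by between -0.09 and 0.12. Of the 9 genes 7 were higher in LN, where 51.6% of all genes were, and their median difference was 0.10, against 0.0075 over all genes. An unadjusted limma p of at most 0.05 was reached by 2 of the 9, CS and IDH3A, against 6.05% of all genes. Both were higher in LN, against 3.3% of all genes with such a p higher in LN and 2.75% lower. A difference of at least 0.5 in either direction was found for 3 of the 9, CS, IDH3A and FH, against 6.68% of all genes. This limit lies just below all 3 values, so the count depends on it. As the mean over a gene's probes CS differed by 0.496, IDH3A by 0.51 and FH by 0.21. LN and HN did not overlap for 1 of the 9, IDH3A, against 4.14% of all genes. Without L5, 6 of the 9 were higher in LN with a median difference of 0.09, and for 0 of them was the unadjusted limma p 0.05 or lower. Without L1 the median difference was 0.02.

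**Figure D1:**
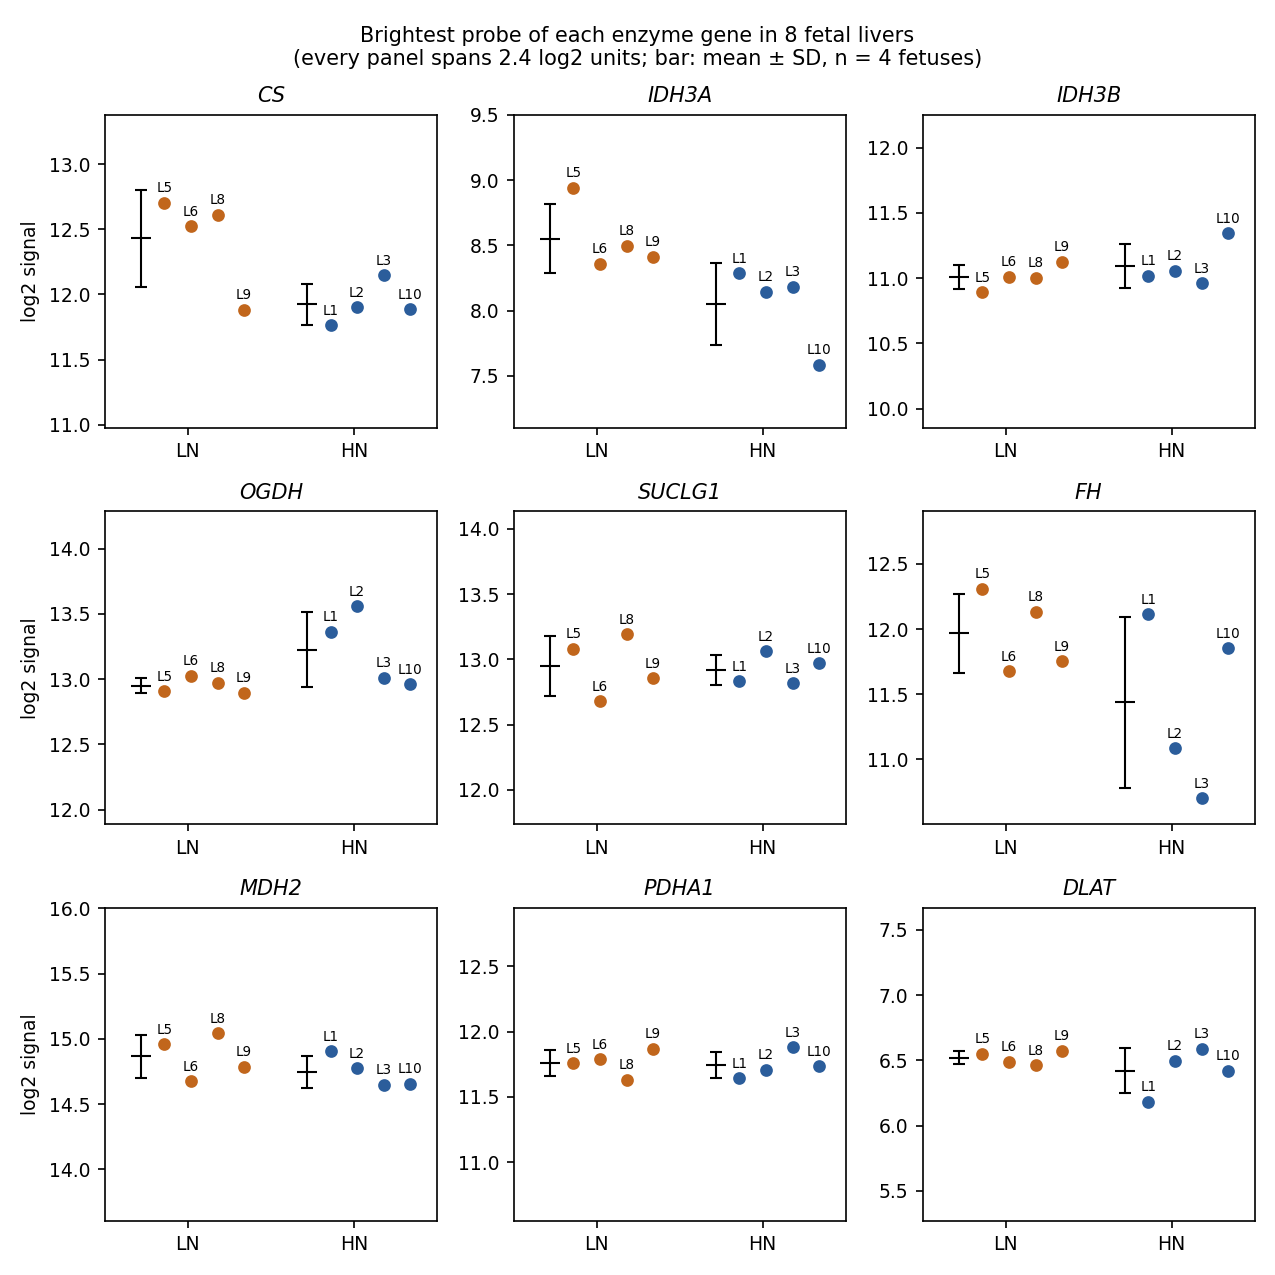
Log2 signal of probe 1 of the 9 genes in each of the 4 LN fetuses (orange) and 4 HN fetuses (blue), with the mean ± SD of each group as a bar; every panel has its own axis of equal length. IDH3A has every LN fetus above every HN fetus, CS has L9 among the HN values, and FH has L2 and L3 far below the rest.

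Citrate synthase (CS) catalyses the entry step of the cycle. Its probe 1 (RefSeq NM_001044721) gave 12.70, 12.52, 12.61 and 11.88 in L5, L6, L8 and L9, and 11.76, 11.90, 12.15 and 11.89 in L1, L2, L3 and L10. L5, L6 and L8 lay above every HN fetus, while L9 lay among the HN values, so the groups overlapped. The LN mean was 12.43 ± 0.37 (SD, n = 4) and the HN mean 11.92 ± 0.16 (SD, n = 4). This is a difference of 0.51 (SE 0.19), or 1.42-fold with a 95% confidence interval of 1.05 to 1.92. The exact permutation p was 0.114 and the limma p 0.0275, which became 0.765 after adjustment.

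The other probes of CS also had higher means in LN, by 0.40 (SE 0.19, exact permutation p = 0.114, limma p = 0.0626) for probe 2 and 0.58 (SE 0.23, exact permutation p = 0.143, limma p = 0.0353) for probe 3. They placed some fetuses differently. L9, low on probe 1, was the highest of all fetuses on probe 2 (9.25), and L6, high on probe 1, was the lowest of all on probe 3 (4.66). L8 lay above every HN fetus on all 3 probes, and L1, L2 and L10 lay below the probe's mean on all 3.

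The unadjusted call for CS depended on single fetuses. Its limma p lay above 0.05 when L5, L6, L8, L1, L2 or L10 was left out (0.0543 to 0.0745) and below it without L3 (0.0241) or L9 (0.00112). The difference itself stayed between 0.42 (without L5) and 0.69 (without L9).

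Isocitrate dehydrogenase 3 is the NAD-dependent enzyme that turns isocitrate into 2-oxoglutarate, and it is built of alpha, beta and gamma subunits. For the catalytic alpha subunit IDH3A (NM_174644), probe 1 gave 8.94, 8.36, 8.50 and 8.41 in L5, L6, L8 and L9, and 8.28, 8.14, 8.18 and 7.58 in L1, L2, L3 and L10. All LN fetuses lay above all HN fetuses, with L5 far above and L10 far below the rest. The difference was 0.50 (SE 0.19), or 1.42-fold (95% confidence interval 1.04 to 1.93), with the smallest exact permutation p that this design allows, 0.0286, a limma p of 0.0302 and an adjusted p of 0.772. Probe 2 of IDH3A repeated this order, with no overlap, a difference of 0.53 (SE 0.21) and an exact permutation p of 0.0286, and in no fetus did the probes' deviations from their own means differ by more than 0.11. Both probes read the same 8 RNA samples, so probe 2 is no further replicate.

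The extreme fetuses weighed on IDH3A. Without L10 the difference was 0.35 and without L5 it was 0.37, and the unadjusted limma p then exceeded 0.05 (0.0735 and 0.0805). In the other 6 cases of 1 fetus left out it stayed at or below 0.0485. L5, the fetus with the raised erythroid markers, was also the highest of all 8 for CS and FH on probe 1, and what part those markers have in these values was not tested. Without L5 the differences of CS, IDH3A and FH were 0.42, 0.37 and 0.42. Granulocyte markers (6 of 6 detected) were summed to 12.34 to 14.24 in LN, highest in L9, and to 10.87 to 12.50 in HN. Lymphocyte markers (3 of 3) were summed to 11.23 to 11.45 in LN and 11.44 to 11.79 in HN. Macrophage markers (4 of 5) gave 13.87 to 14.27 in LN and 13.36 to 14.33 in HN. Endothelial markers (5 of 5) gave 12.38 to 12.96 and 12.39 to 12.77, and cholangiocyte markers (3 of 3) 12.87 to 13.30 and 12.93 to 13.14.

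The beta subunit IDH3B had slightly lower means in LN. Its probe 1 (NM_001145872) gave 10.89, 11.01, 11.004 and 11.13 in L5, L6, L8 and L9, and 11.02, 11.06, 10.96 and 11.34 in L1, L2, L3 and L10. The groups lay over each other, with L10, the lowest fetus for IDH3A, the highest for IDH3B. The difference was -0.09 (SE 0.12, 95% confidence interval -0.37 to 0.19). IDH3B had 4 probes, of which probes 1 and 2 carry NM_001145872 and probes 3 and 4 carry NM_001167874, another transcript of the gene. All 4 were lower in LN, by between -0.17 and -0.02, and the lowest limma p was 0.490. On probes 3 and 4 the fetuses L6 and L3 were the lowest (7.66 and 7.68 on probe 3, with the others at 7.99 to 8.49). On probe 1 L6 lay among the others, while L3 was the lowest of HN, and on probe 2 L3 was the lowest of all 8 (9.35). The gamma subunit IDH3G was close to IDH3B, with a difference of -0.10 (SE 0.13) on probe 1 and -0.07 (SE 0.12) on the other probe.

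The 2-oxoglutarate dehydrogenase complex makes succinyl-CoA, and OGDH is its E1 subunit. Probe 1 of OGDH (NM_001076030) gave 12.91, 13.03, 12.97 and 12.90 in L5, L6, L8 and L9, and 13.36, 13.56, 13.01 and 12.96 in L1, L2, L3 and L10. The LN fetuses were nearly equal (SD 0.06), while L1 and L2 lay above the other 6 fetuses and L3 and L10 lay among LN (HN SD 0.29). The difference was -0.27 (SE 0.15, exact permutation p = 0.143, limma p = 0.111, adjusted p = 0.799). Probe 2 gave -0.58 (SE 0.39, exact permutation p = 0.257, limma p = 0.168) with a much wider spread, from 4.45 in L6 to 6.26 in L2. With 1 fetus left out, the difference of probe 1 ran from -0.36 without L10, where the unadjusted limma p was at its lowest (0.0497), to -0.16 without L2, where it was at its highest (0.291).

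DLST, the E2 subunit of the same complex, differed by -0.18 (SE 0.31) on probe 1 and by -0.22 (SE 0.19) on its other probe. Succinyl-CoA is next split by succinate-CoA ligase, whose alpha subunit is SUCLG1 (NM_001035082). SUCLG1 gave 13.08, 12.68, 13.19 and 12.86 in LN and 12.83, 13.06, 12.82 and 12.97 in HN, in the order of fetuses used above. The HN values lay inside the LN range, and the difference was 0.03 (SE 0.14, 95% confidence interval -0.29 to 0.35). Its probe 2 gave 0.02 (SE 0.22). The beta subunits with which SUCLG1 pairs differed by 0.10 (SE 0.15, SUCLG2) and 0.10 (SE 0.18, SUCLA2). The other probes of SUCLG2 gave -0.08 and -0.10, and those of SUCLA2 gave 0.18 to 0.23.

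Fumarase (FH) hydrates fumarate to malate. Probe 1 of FH (NM_001075803) gave 12.31, 11.68, 12.13 and 11.75 in L5, L6, L8 and L9, and 12.11, 11.09, 10.70 and 11.85 in L1, L2, L3 and L10. L2 and L3 lay below the other 6 fetuses, and L1 and L10 lay inside the LN range. FH had the widest spread of the 9 genes, with an SD of 0.55 over the 8 fetuses that 10.1% of all genes exceeded. Its difference was 0.53 (SE 0.31), or 1.44-fold with a 95% confidence interval of 0.88 to 2.36, and the limma p was 0.126 (adjusted p = 0.807). Leaving out L3 brought the difference to 0.28, and leaving out L1 brought it to 0.75 with a limma p of 0.0324.

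The 4 probes of FH fell into pairs that differed in direction. Probe 2 gave 0.53 (SE 0.31) with the same low fetuses as probe 1, while probe 3 gave -0.11 (SE 0.24) and probe 4 gave -0.09 (SE 0.30). L2 showed the widest gap between the pairs: relative to each probe's own mean it stood at -0.62 and -0.60 on probes 1 and 2, and at 0.45 and 0.46 on probes 3 and 4. L3 was lower on probes 1 and 2 (-1.001 and -0.97) than on probes 3 and 4 (-0.31 and -0.42), and L6 was higher on them (-0.03 and -0.08, against -0.54 and -0.68). Between probes 1 and 4 the gap in L2 was 1.08, and 7.1% of the 6687 genes with more than 1 detected probe had a larger gap in some fetus. FH was the only 1 of the 8 enzymes with several probes to have a gap of at least 1, against 9.08% of those genes. All 4 probes carry the same RefSeq accession. Averaged over the 4 probes the difference of FH was 0.21.

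Malate dehydrogenase 2 (MDH2) closes the cycle by making oxaloacetate from malate. Its probe 1 (NM_001013587) gave 14.96, 14.67, 15.04 and 14.79 in L5, L6, L8 and L9, and 14.91, 14.78, 14.65 and 14.65 in L1, L2, L3 and L10. The groups overlapped through most of their ranges, and the difference was 0.12 (SE 0.13, 95% confidence interval -0.17 to 0.41). Probe 2 gave 0.11 (SE 0.19) and probe 3 gave -0.00095 (SE 0.21).

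**Figure D2:**
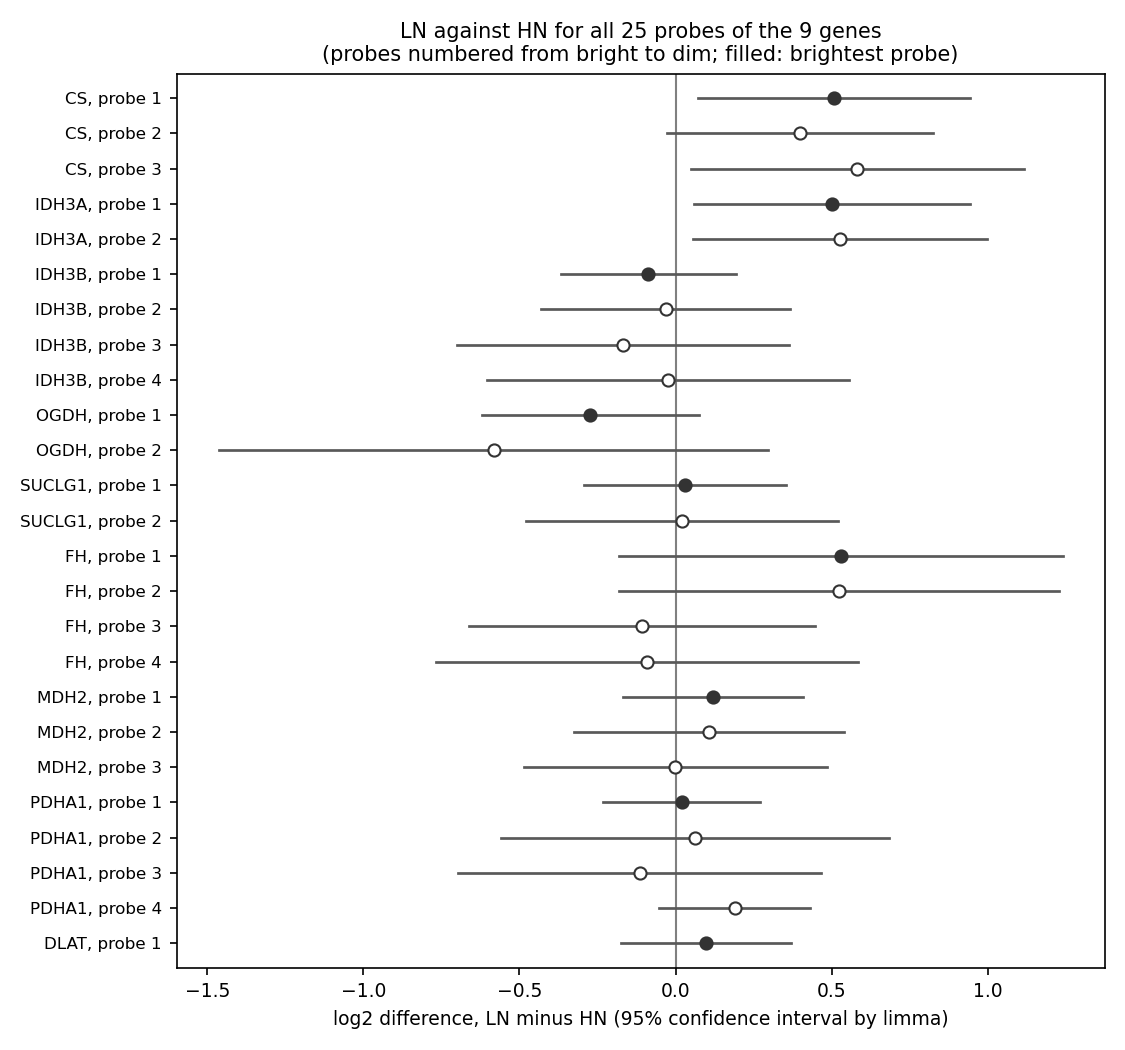
Log2 difference, LN minus HN, with its 95% confidence interval by limma for all 25 probes of the 9 genes, filled for probe 1 and open for the others. The intervals of 4 probes, from CS and IDH3A, lie wholly above 0, and those of FH lie at 0.53 for 2 probes and near -0.10 for the other 2.

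Over all 25 probes, 15 were higher in LN (50.3% of all detected probes) and 10 were lower. An unadjusted limma p of at most 0.05 was reached by 4 (6.32% of all detected probes), from CS and IDH3A, and an adjusted one by 0 (0% of all detected probes). No overlap between groups was found for 2, both of IDH3A (4.13% of all detected probes). Among the 8 genes with more than 1 probe, FH, MDH2 and PDHA1 had probes in both directions, where 32.2% of all genes with more than 1 detected probe did.

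PDHA1 encodes the E1 alpha subunit of pyruvate dehydrogenase, the subunit that the kinases phosphorylate. Probe 1 (NM_001101046) gave 11.76, 11.79, 11.63 and 11.87 in L5, L6, L8 and L9, and 11.64, 11.71, 11.88 and 11.73 in L1, L2, L3 and L10. All 8 fetuses lay within 0.25, the narrowest range of the 9 genes, and 96.4% of all genes had a larger SD over the fetuses. The difference was 0.02 (SE 0.11), or 1.01-fold with a 95% confidence interval of 0.85 to 1.21. Probes 2, 3 and 4 gave 0.06 (SE 0.27), -0.11 (SE 0.26) and 0.19 (SE 0.11, exact permutation p = 0.0571, limma p = 0.108).

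DLAT encodes the E2 core of the complex, which passes the acetyl group to coenzyme A. It had 1 probe (NM_001205730), with 6.55, 6.49, 6.47 and 6.58 in L5, L6, L8 and L9, and 6.18, 6.497, 6.59 and 6.42 in L1, L2, L3 and L10. L1 was the lowest, and the other fetuses lay close together. The difference was 0.10 (SE 0.12, 95% confidence interval -0.17 to 0.37), and it was -0.02 with arrays scaled to their 75th percentile, which moves the median of all probes to -0.05. The remaining subunits of the complex differed by 0.05 (SE 0.13) for PDHB, the E1 beta subunit, by 0.16 (SE 0.13) for PDHX, which holds E3 in the complex, and by 0.16 (SE 0.15) for DLD, the E3 subunit. Their further probes gave 0.05 for PDHB, 0.07 and 0.12 for PDHX and 0.05 for DLD, and the groups overlapped for all of these probes.

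The 9 genes were also averaged within each fetus, as a description with no test. The mean of their deviations from their own means was 0.20 in L5, -0.0065 in L6, 0.14 in L8 and -0.01 in L9, and -0.02, -0.05, -0.15 and -0.10 in L1, L2, L3 and L10. L5 and L8 were above the other fetuses, and L6 and L9 lay close to L1 and L2. The means of L5 and L3 leaned on few genes. In L5 CS, IDH3A and FH deviated by 0.53, 0.64 and 0.61, and the other genes by between -0.18 and 0.15. In L3 FH deviated by -1.001, and the other genes by between -0.16 and 0.13. On the other probes of FH, L3 stood at -0.97, -0.31 and -0.42. L5 was the highest fetus for 3 genes and above the gene's mean for 7 of 9, whereas L3 was above it for 2 of 9.

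The list of other pathway genes held 30 genes, of which 28 had a matched probe and 26 a detected one. Of these 26, 11 were higher and 15 lower in LN, with a median difference of -0.07, and 51.6% of all genes were higher. With 1 fetus left out, the count of those higher ran from 8 (without L5) to 15 (without L6). It was 16 with brightness as a covariate, an alternative chosen after seeing the data. An unadjusted limma p of at most 0.05 was reached by 2 of 26 (6.05% of all genes), 1 higher (3.3%) and 1 lower (2.75%), and an adjusted one by 0. No overlap was found for the same 2 genes, PDK2 and PDK3 (4.14% of all genes). By role, 3 of 3 remaining pyruvate dehydrogenase subunits were higher in LN, as were 4 of 10 other citrate cycle genes and 3 of 6 cytosolic enzymes and carriers. The 3 genes of pyruvate entry were all lower in LN. The difference was -0.33 (SE 0.19) for MPC1 and -0.06 (SE 0.18) for MPC2, which form the mitochondrial pyruvate carrier. It was -0.30 (SE 0.14) for PC, which carboxylates pyruvate to oxaloacetate. The lowest adjusted p among these 3 was 0.787. PC had 2 further probes, which gave -0.36 (SE 0.16, exact permutation p = 0.0571, limma p = 0.0546, adjusted p = 0.785) and -0.50 (SE 0.19, exact permutation p = 0.0857, limma p = 0.0293, adjusted p = 0.768).

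**Figure D3:**
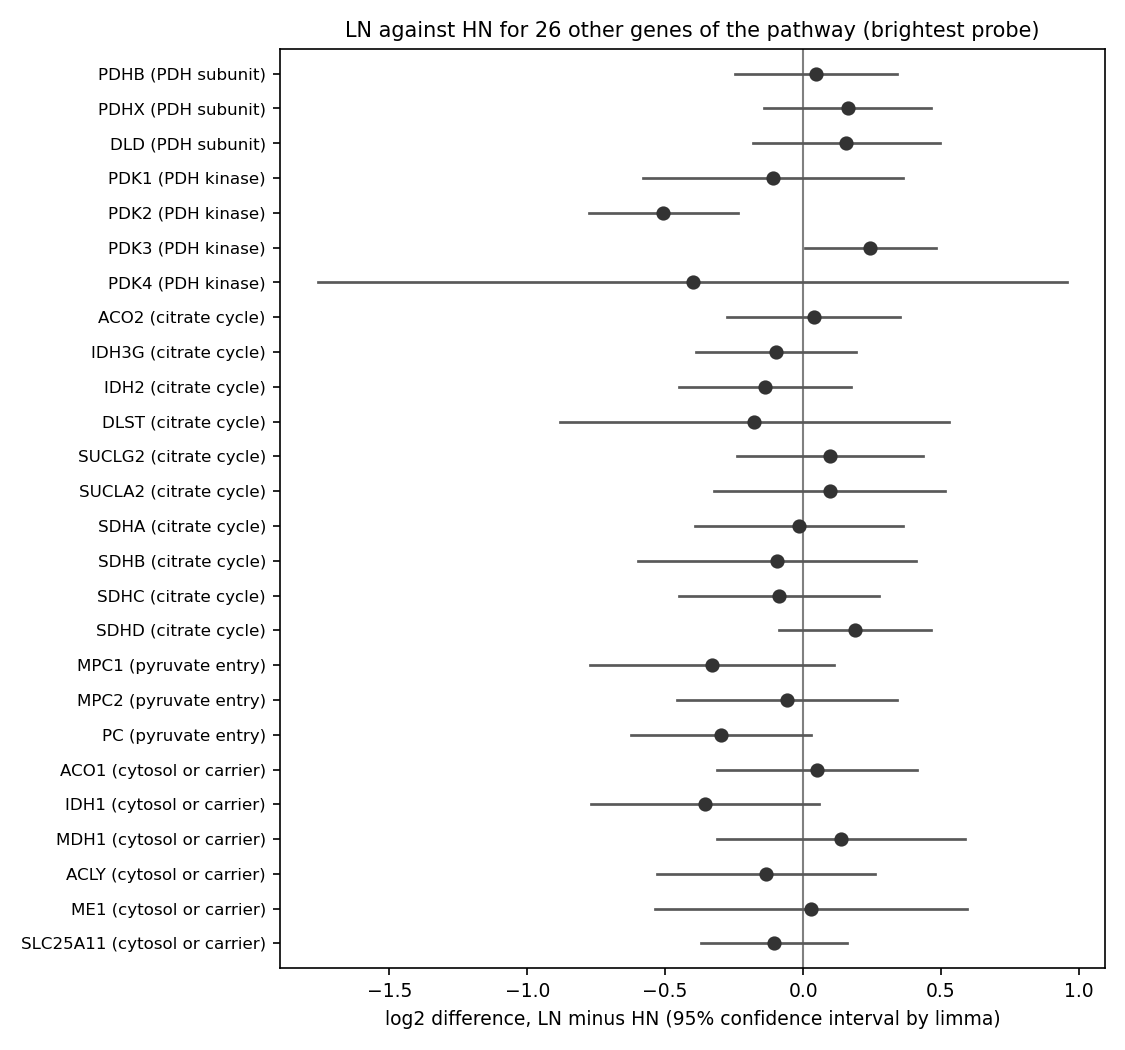
Log2 difference, LN minus HN, of probe 1 of 26 other genes of the pathway, with the 95% confidence interval by limma and the role of each gene in brackets. PDK2 lies wholly below 0 and PDK3 just above it, the interval of PDK4 is the widest, and the intervals of the other 23 genes include 0.

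The kinases that inactivate pyruvate dehydrogenase did not share a direction. PDK2 (NM_001075853) gave 10.36, 10.46, 10.37 and 10.58 in L5, L6, L8 and L9, and 10.84, 10.998, 10.83 and 11.12 in L1, L2, L3 and L10. Every LN fetus lay below every HN fetus. The difference was -0.51 (SE 0.12), or 0.70-fold with a 95% confidence interval of 0.58 to 0.85, the exact permutation p was 0.0286 and the limma p 0.00221, which became 0.734 after adjustment. The limma p stayed between 0.00303 and 0.00766 when any 1 fetus was left out. A second PDK2 probe was well above background on 2 arrays, both of HN, and did not count as detected.

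PDK3 (NM_001101934) ran the other way, with 9.83, 9.99, 9.98 and 9.86 in L5, L6, L8 and L9, and 9.74, 9.61, 9.73 and 9.61 in L1, L2, L3 and L10. Every LN fetus lay above every HN fetus, by a small margin. The difference was 0.24 (SE 0.10), or 1.18-fold (95% confidence interval 1.00 to 1.40), with an exact permutation p of 0.0286, a limma p of 0.0455 and an adjusted p of 0.785. Its second probe gave 0.32 (SE 0.15, exact permutation p = 0.0857, limma p = 0.0620) and the groups overlapped there. Leaving out any fetus but L5 took the limma p of PDK3 above 0.05 (0.0575 to 0.102).

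PDK4 is known to be raised by fasting in many tissues. It varied more between fetuses than any other kinase, from 9.997 in L5, 12.97 in L6, 10.19 in L8 and 11.04 in L9 to 11.83, 10.99, 11.14 and 11.83 in L1, L2, L3 and L10. L6 was the highest of all fetuses and L5 and L8 the lowest, so LN held both ends. The difference was -0.40 (SE 0.60, exact permutation p = 0.686, limma p = 0.520). It was -1.04 without L6, where the unadjusted limma p was below 0.05 (0.0121) and the adjusted p 0.761, -0.05 without L5 and -0.11 without L8. With array brightness as a covariate, an alternative chosen after seeing the data, it was -1.05 in all 8 fetuses, and the unadjusted limma p was again below 0.05 (0.0459, adjusted p = 0.344). The 8 probes of PDK4 were all lower in LN.

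PDK1 differed by -0.11 (SE 0.21), with L8 the lowest fetus. Of the phosphatases that reverse the kinases, PDP1 was well above background on 1 array and its regulator PDPR on 3 arrays. Neither counted as detected, and PDP2 was not analysed here.

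**Figure D4:**
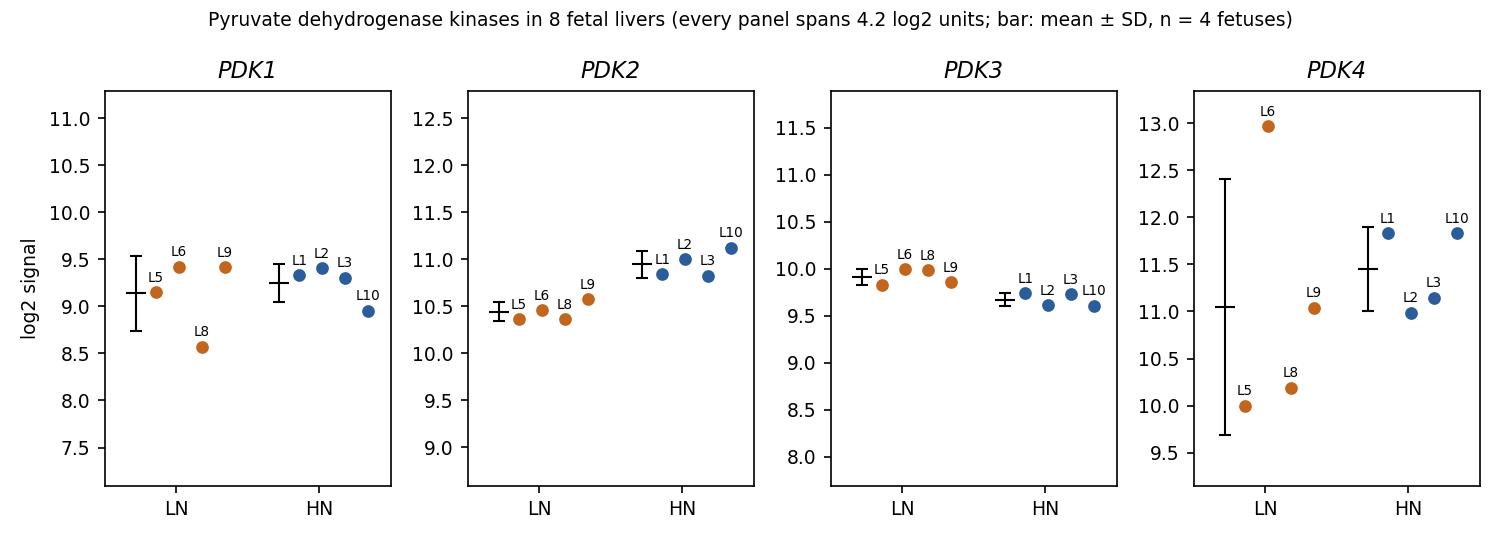
Log2 signal of probe 1 of the 4 pyruvate dehydrogenase kinases in each LN fetus (orange) and HN fetus (blue), with the mean ± SD of each group as a bar and axes of equal length. PDK2 is lower in all LN fetuses and PDK3 higher, PDK1 overlaps, and PDK4 spreads from 9.997 (L5) to 12.97 (L6) within LN.

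Several further probes of the 9 genes followed the brightness of the array before normalization, none with an adjusted p of at most 0.05. By Pearson's r, 0% of all detected probes had such an adjusted p. Over the 8 fetuses, probe 3 of FH had Pearson's r = 0.93 with brightness (permutation p = 0.00067, adjusted p = 0.194) and Spearman's rho = 0.93 (permutation p = 0.0022, adjusted p = 0.203). Probe 2 of OGDH had r = 0.93 (permutation p = 0.0013, adjusted p = 0.196) and rho = 0.95 (permutation p = 0.0011, adjusted p = 0.203). Probe 2 of PDHA1 ran the other way, with r = -0.89 (permutation p = 0.0040, adjusted p = 0.199) and rho = -0.90 (permutation p = 0.0046, adjusted p = 0.235). Probe 2 of CS, higher in LN by 0.40, was also brighter on the dimmer arrays, with r = -0.78 (permutation p = 0.0252, adjusted p = 0.258) and rho = -0.76 (permutation p = 0.0368, adjusted p = 0.295). The mean brightness was 6.29 in LN and 6.49 in HN. What part brightness has in the difference of probe 2 of CS was not tested. Without L6 and L9, the fetuses farthest from the median brightness, r was 0.89 for FH, 0.83 for OGDH, -0.84 for PDHA1 and -0.71 for CS. Probe 3 of MDH2 had r = 0.78 (permutation p = 0.0260, adjusted p = 0.259) and rho = 0.76 (permutation p = 0.0368, adjusted p = 0.295), and its r was 0.56 without L6 and L9.

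The test was run on all detected probes, and the adjusted values are over all of them. An r of at least 0.7 was found for 4 of the 25 probes, where 8.3% of all detected probes had one, and an r of -0.7 or less for probe 2 of CS and probe 2 of PDHA1, where 9.01% had one. No probe 1 of the 9 genes reached either limit. For probe 1 of CS r was -0.06 (permutation p = 0.874, adjusted p = 0.952; rho = 0.14, permutation p = 0.752, adjusted p = 0.895), and for probe 1 of IDH3A it was 0.18 (permutation p = 0.691, adjusted p = 0.861; rho = 0.02, permutation p = 0.977, adjusted p = 0.992). Without L6 and L9, r was 0.07 for probe 1 of CS and 0.57 for probe 1 of IDH3A. The strongest r of a probe 1 over the 8 fetuses was 0.65, for SUCLG1 (permutation p = 0.0822, adjusted p = 0.354). With brightness as a covariate, an alternative chosen after seeing the data, CS differed by 0.59 and IDH3A by 0.68. FH then differed by 0.67 and OGDH by -0.20.

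**Figure D5:**
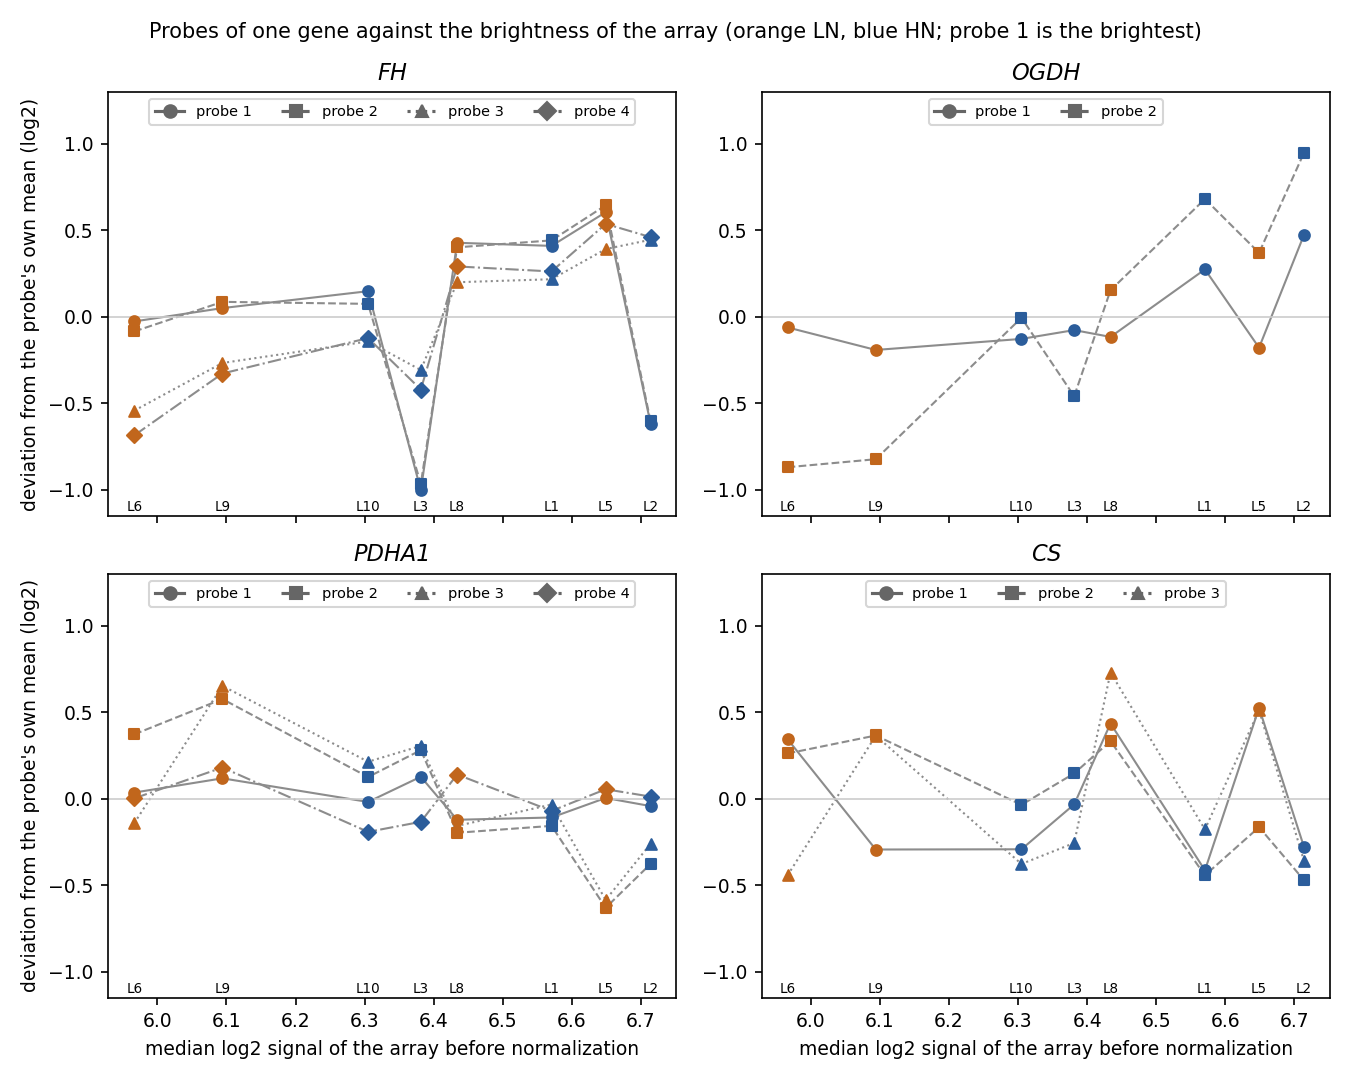
Deviation of each probe from its own mean (log2) against the median log2 signal of the array before normalization, for the probes of FH, OGDH, PDHA1 and CS in LN (orange) and HN (blue) fetuses. Probes 3 and 4 of FH and probe 2 of OGDH climb from L6 to L2, probe 2 of PDHA1 descends, and L2 and L3 leave the line on probes 1 and 2 of FH.

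Among genes with an SD over the fetuses of at least that of CS divided by 2, which of the other enzymes left IDH3A, OGDH and FH, those whose pattern lay closest to CS were sought by the root mean square difference of log2 signal over the 8 fetuses, after each gene was centred on its own mean. Of 7168 genes the 5 closest were RAP2C (0.15), RAMAC (0.16), MMS22L (0.16), PUDP (0.17) and NADK2 (0.17), against a root mean square of 0.35 for CS about its own mean. These are distances to probe 1 of CS only. Probes 2 and 3 of CS lay farther from it than these genes, with an SD of the gap over the fetuses of 0.39 and 0.42. NADK2 makes NADP in the mitochondrion, and RAP2C is a small GTPase of the Ras family. In RAP2C the values were 12.40, 12.03, 12.24 and 11.66 in L5, L6, L8 and L9, and 11.73, 11.57, 12.10 and 11.74 in L1, L2, L3 and L10. LN had the same order as on probe 1 of CS, with L9 at the level of HN. RAP2C was picked for its closeness to CS in these fetuses, so the likeness follows from the choice.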

How the data were processed

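Liver RNA of 8 fetuses was measured on 1-colour arrays. The authors deposited scanner intensity values, which Feature Extraction 11.0.1.1 had background-subtracted with no normalization between arrays, and a table of log2 values quantile normalized in GeneSpring GX per the methods. The deposited log2 table holds 31068 probes, and its values were used only as an alternative.

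Here 1417 control spots per array and 16 probes marked as outliers were left out, replicate spots were averaged as log2 values, and the log2 processed signals of 43637 probes were quantile normalized. A detected probe was well above background on at least 4 arrays, with 32635 to 34369 of 43803 spots well above background and 0 saturated on an array. Accessions of 26740 probes were matched to 12603 genes of RefSeq assembly ARS-UCD2.0. The array was designed on another build, so no coordinates are given.

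Differences were tested by lmFit and eBayes of limma 3.58.1 (R 4.3.3), and exact permutation tests used all 35 divisions. Brightness correlations used permutation p-values. If the arrays held pooled RNA, as the series' description has it, p-values would measure technical spread only. The functions were tested on simulated data. The genes named are the 9 enzymes, the subunits and kinases that act with them, pathway genes with an unadjusted p of at most 0.05 or no overlap, genes of pyruvate entry (values added after they were seen), and the 5 closest to CS among genes with an SD of at least that of CS divided by 2. The 9 genes, the other lists and the tests were chosen with earlier results of these data known. Alternatives were scaling to the 75th percentile, normexp with an offset of 50, the authors' table, eBayes with trend and robust settings, dim probes kept, detection required on all 8 arrays, the mean over a gene's probes and each fetus left out, and, chosen after seeing the data, brightness as a covariate.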

Additional observations from a re-analysis of the deposited data

Results flagged for a closer look

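Within the 4 HN fetuses, L3 stood far from the others on 3 probes, by a gap that exceeded Dixon's 95% critical value for the share of the group's range. Probe 3 of IDH3B gave 7.68 in L3 and 8.40 to 8.49 in L1, L2 and L10. Probe 4 of IDH3B gave 7.32 in L3 and 8.17 to 8.28 in the others. Probe 2 of MDH2 gave 11.30 in L3 and 11.77 to 11.80 in the others. On all 3 probes L6 of the LN group was low as well, at 7.66, 7.51 and 11.35. In all, 72 groups of 4 fetuses were tested this way, and chance flags about 1 in 20.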

How the results depend on the processing

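Under the 16 alternatives, 0 of the 9 enzymes passed an adjusted p of 0.05, and CS, IDH3A, FH, MDH2, IDH3B and OGDH kept their direction in all of them, CS between 0.42 and 0.69 and IDH3A between 0.35 and 0.68. Differences near 0 changed sign. DLAT was -0.021 after scaling to the 75th percentile. PDHA1 was -0.022 with brightness as a covariate, where DLST was 0.16, and SUCLG2 was -0.026 as the mean over its probes. With 1 fetus left out in turn, the differences ran from -0.017 to 0.066 for PDHA1, -0.049 to 0.12 for SUCLG1, -0.43 to 0.0037 for DLST, -0.014 to 0.12 for PDHB, -0.21 to 0.081 for PDK1 and -0.021 to 0.23 for SUCLA2. With the sign kept, 1 fetus moved the value by over 1.5 times for FH (0.28 without L3), OGDH (-0.16 without L2), MDH2 (0.06 without L8 and 0.18 without L6), IDH3B (-0.0040 to -0.13, without L10, L5 or L3), DLAT (0.02 without L1 and 0.15 without L3), DLD (0.05 without L5 and 0.10 without L3), IDH3G (-0.03 to -0.16, without L5, L10 or L6), PDHX (0.09 without L10 and 0.095 without L6), SUCLG2 (0.01 to 0.199, without L6, L1, L9 or L8) and PDK4 (-0.05 to -1.04, without L5, L8 or L6). Other settings moved values as far with the sign kept. With brightness as a covariate these were PDK4 (-1.05), SUCLA2 (0.29), DLD (0.26), MDH2 (0.22), SUCLG1 (0.14), PDHB (0.11), SUCLG2 (0.0028), IDH3B (-0.15), IDH3G (-0.18) and PDK1 (-0.18). As the mean over a gene's probes they were OGDH (-0.43), FH (0.21), SUCLA2 (0.17), DLD (0.10), MDH2 (0.08) and PDHA1 (0.04). With normexp they were DLAT (0.05), PDHA1 (0.05), SUCLG1 (0.02), PDHB (0.01) and DLST (-0.02), and with scaling to the 75th percentile DLST (-0.37) and PDHA1 (0.04). With 1 fetus left out, the median of the 9 enzymes ran from 0.019 (without L1) to 0.12. It was 0.04 with scaling to the 75th percentile, 0.05 with normexp and 0.14 with brightness as a covariate. The count of the 9 with an unadjusted p of at most 0.05, which was 2, ran from 0 to 2: it was 0 without L5 and 1 without L6, L8, L2 or L10. For the other pathway genes this count ran from 1 (without L8, L1, L2, L3 or L10) to 3, and it was 5 with brightness as a covariate, where their median was 0.066. That median, -0.07 in all 8 fetuses, ran from -0.13 (without L3) to 0.01 (without L2 or L6). It was -0.03 with normexp and -0.04 with dim probes kept. The cause of these changes was not tested. No paired analysis was possible because LN fetuses (5, 6, 8 and 9) and HN fetuses (1, 2, 3 and 10) share no number. All probes of the 9 enzymes were well above background.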
